A study of Mus musculus and synthetic construct with 32 samples.

Results

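The genes encoding the proteins of the cytosolic ribosome were followed in testes and ovaries of mice that lack Ythdc2. Members were taken by gene name: rows of sense exons, with the introns of the same genes beside them, whose name starts with Rpl, Rps or Rplp followed by a digit, or is Rpsa. Names of the ribosomal S6 kinases and names of pseudogenes that carry -ps were left out. This gave 89 genes of 22750 gene names in the series. They comprised 43 proteins of the large subunit, 3 of the ribosomal stalk, 31 of the small subunit, and 12 paralogs and other names that meet the rule (Rpl3l, Rpl7l1, Rpl10l, Rpl22l1, Rpl32l, Rpl36al, Rpl37rt, Rpl39l, Rps4l, Rps19bp1, Rps27l and Rps27rt). The rule uses names only. A floor of 10 on the mean normalized count was reached by 89 members in P8 testis, 89 in P12 testis and 86 in P0 ovary, where Rpl27, Rps23 and Rpl3l lay below it, and by 87 in the m6A table, where Rpl27 and Rps27rt lay below it.

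Ythdc2 encodes a 3′ to 5′ RNA helicase with a YTH domain, and the study asked how it acts on RNAs with N6-methyladenosine (m6A) in germ cells that enter meiosis. Total RNA of whole gonads, depleted of ribosomal RNA and sequenced with strand information, was compared in 3 settings, all on the C57BL/6J background. P12 testes came as 3 libraries of knockout mice (Ythdc2 -/-, KO) and 3 of heterozygotes (Ythdc2 +/-, het), P8 testes as 2 KO, 1 het and 1 wild-type (wt) library, and P0 ovaries as 2 KO and 2 het libraries. For m6A at P8, fragmented polyadenylated RNA of wt testes gave 1 immunoprecipitate and 1 input library. Per the labels, Cas9 gave 2 knockout lines, a deletion of exon 7 and an insertion of stop codons into that exon, and which line a library came from is not labelled. Both lesions lie in a single exon, so the count over the whole gene does not test them directly. Exon counts of Ythdc2 in the authors' deposited tables were lower in KO than in het at P12 (log2 fold -1.29, adjusted p = 9.87e-25). They had a log2 fold of -0.50 in KO over wt at P8 (adjusted p = 1) and of -0.43 in KO over het in ovary (adjusted p = 0.584).

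Each count, log2 fold and adjusted p for a named gene below is a value of the authors' deposited table for that comparison. Those tables hold no values per library, so neither the spread between replicates nor the overlap of the groups can be given, and the level of a gene is the mean normalized count over all libraries of a table. The authors' adjusted p, below 0.05 for a call, is the test used, and at P8 it rests on 2 libraries against 1, or 1 against 1 in het over wt. The labels do not say whether libraries came from separate animals, so the adjusted p-values measure only the spread between these libraries, which may be technical. The sum of the mean normalized counts was 42229589 in the P8 table, 37066681 in the P12 table, 23754190 in the ovary table and 24879917 in the m6A table. Ribosomal protein genes made up 1.30% (P8), 1.40% (P12) and 1.70% (ovary) of the sense exon counts of genes in total RNA. They made up 0.579% in the m6A libraries, which were made from polyadenylated RNA with another kit. That share pools 10 libraries, immunoprecipitates and inputs alike, of P8 wt, P12 het and P20 wt testes. It is therefore not comparable with the shares in total RNA. The P8 het library stood apart, in that 7 of 7 measured spermatid transcripts had positive log2 folds in het over wt (median 0.35) and Prm1 and Prm2, the protamines of sperm chromatin, rose. The wt library is therefore the first control at P8. Of the 8 listed spermatid transcripts, 7 reached the floor on mean counts at P8 and only 1 at P12, the older age. They are read as a gene list and not as a measure of spermatids.

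Ribosomal proteins assemble with ribosomal RNA in the nucleolus into a small subunit, which decodes mRNA, and a large subunit, which forms peptide bonds and carries the acidic stalk that recruits translation factors. Most mammalian ribosomal protein mRNAs begin with a C followed by a run of pyrimidines, the 5′ terminal oligopyrimidine (TOP) motif, through which mTORC1 controls their translation. In mice, several genes of X-linked or broadly expressed ribosomal proteins have autosomal paralogs used mostly in male germ cells, when the X chromosome is silenced in meiosis.

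The start sites are shown first, because most members with a matched promoter have a pyrimidine tract near them. RefSeq promoters of GRCm38.p6 were matched for 68 of the 89 members, and a gene with several annotated starts was counted when any of them held the motif. A C followed by at least 4 pyrimidines exactly at the annotated start was found on the gene strand in 15 of 68 members (22.1%) and in 338 of 11300 protein-coding genes counted at P12 (2.99%). On the other strand it was found in 3 of 68 members (4.41%) and in 7.59% of the 11300 genes. A longer tract, a C followed by 7 pyrimidines anywhere from 20 bases before to 50 after the start, was found on the gene strand in 50 of 68 members (73.5%) and 23.3% of the 11300 genes. On the other strand it was found in 8 of 68 members (11.8%) and 26.7% of the genes. The first 6 windows printed here belong to the canonical members with the tract at their start that have the highest mean counts at P12. The last 3 belong to the paralogs and other names with the highest m6A folds (below). Each window is 30 bases long, 5′ to 3′ on the gene strand, with 10 bases before the start, and capitals mark every C followed by at least 4 pyrimidines.
Rpl14 (chr9:120571507-120571536, + strand): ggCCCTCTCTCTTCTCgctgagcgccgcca
Rps18 (chr17:33955646-33955675, - strand): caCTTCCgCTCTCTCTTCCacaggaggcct
Rpl35 (chr2:39005112-39005141, - strand): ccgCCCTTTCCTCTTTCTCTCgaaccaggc
Rps10 (chr17:27635225-27635254, - strand): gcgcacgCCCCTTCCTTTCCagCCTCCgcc
Rps15a (chr7:118116128-118116157, - strand): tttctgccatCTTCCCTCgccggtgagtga
Rps21 (chr2:180257369-180257398, + strand): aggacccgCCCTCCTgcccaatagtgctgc
Rpl10l (chr12:66284382-66284411, - strand): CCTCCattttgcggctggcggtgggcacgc
Rps19bp1 (chr15:80264287-80264316, - strand): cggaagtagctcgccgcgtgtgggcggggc
Rpl36al (chr12:69184048-69184077, - strand): ccgtcgctcaggttcagttccgaCTTCCgc
The first 6 windows were chosen for having the tract at the start, so they do not show how common it is, and most matched members, canonical and paralog alike, lack it at the exact start.

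Other promoter letters were less uniform. CCGGAAG, the core bound by ETS factors, was found on either strand between 250 bases before and 50 after the start in 26 of 68 members (38.2%) and 17.9% of the 11300 genes. Its complement CTTCCGG contains a C followed by 4 pyrimidines, so the motifs overlap in part. TATAAA in the 50 bases before the start was found on the gene strand in 1 of 68 members (1.47%) and 1.90% of the genes. Among the paralogs and other names, 2 of 11 had the tract at the start, 5 of 11 the longer tract and 2 of 11 the CCGGAAG motif. Among the canonical members these were 13, 45 and 24 of 57. The 250 bases upstream of Rps3a1, whose exons rose at P12, and of Rpsa, whose introns rose at P12 (below), are printed 5′ to 3′ on the gene strand with CCGGAAG or its complement in capitals.
Rps3a1 (chr3:86142669-86142918, - strand): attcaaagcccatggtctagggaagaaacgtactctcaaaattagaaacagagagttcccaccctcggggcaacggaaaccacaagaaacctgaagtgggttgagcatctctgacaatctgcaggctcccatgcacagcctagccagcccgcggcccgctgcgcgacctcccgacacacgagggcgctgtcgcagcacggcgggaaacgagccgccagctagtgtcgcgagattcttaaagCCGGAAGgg
Rpsa (chr9:120127516-120127765, + strand): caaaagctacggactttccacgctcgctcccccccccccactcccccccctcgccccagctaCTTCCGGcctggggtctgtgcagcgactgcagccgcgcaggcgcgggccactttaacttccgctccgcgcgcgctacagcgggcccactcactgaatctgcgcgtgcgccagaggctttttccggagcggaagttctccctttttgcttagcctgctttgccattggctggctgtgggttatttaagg
In Rps3a1 the motif sits just before the start, and in Rpsa its complement sits far upstream of it. A match describes these letters and was not tested as a binding site.

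In P12 testis most ribosomal protein genes had slightly positive folds in KO over het, and 1 of them passed the test. Log2 folds were above 0 in 80 of 89 members, against 52.1% of the 15608 genes with a mean count of at least 10. The members' median was 0.13, a linear fold of 1.09, and the median of all genes was 0.01. Rps3a1, a protein of the small subunit (chr3:86137940-86142668, GRCm38.p6), rose in KO, with a mean count of 3606 and a log2 fold of 0.41 in the authors' deposited table (adjusted p = 0.00805). Of all genes 0.0961% rose. No member fell, while 0.782% of all genes did, which brings all calls to 0.878%.

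The large and small subunits had nearly equal folds at P12. Log2 folds were above 0 in 41 of 43 large subunit genes (median 0.14), 27 of 31 small subunit genes (median 0.14), 2 of 3 stalk genes (median 0.02) and 10 of 12 paralogs and other names (median 0.08). After Rps3a1 came Rps18, of the small subunit head, with a log2 fold of 0.34 (adjusted p = 0.417). Rpl22l1, the paralog of Rpl22, had 0.32 (adjusted p = 0.515), and the X-linked Rpl39 had 0.32 (adjusted p = 0.412). The X-linked Rps4x had 0.31 (adjusted p = 0.429). None of these 4 passed the test.

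The lowest folds at P12 were those of Rpl21 (-0.21, adjusted p = 0.917), Rpl10l (-0.07), Rps7 (-0.05), Rps19bp1 (-0.04) and Rplp0 (-0.04), all with adjusted p above 0.9 in the authors' deposited table. The genes with the highest mean counts were Rpl4 (23566), Rpl8 (14383) and Rplp0 (13352), the stalk base. Rpl4 had a log2 fold of 0.21 (adjusted p = 0.654) and Rpl8 of 0.10 (adjusted p = 0.979). With a mean count of at least 1000, 55 of 58 members were above 0, against 49.7% of all such genes, so the positive folds were not limited to members with few counts.

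**Figure D1:**
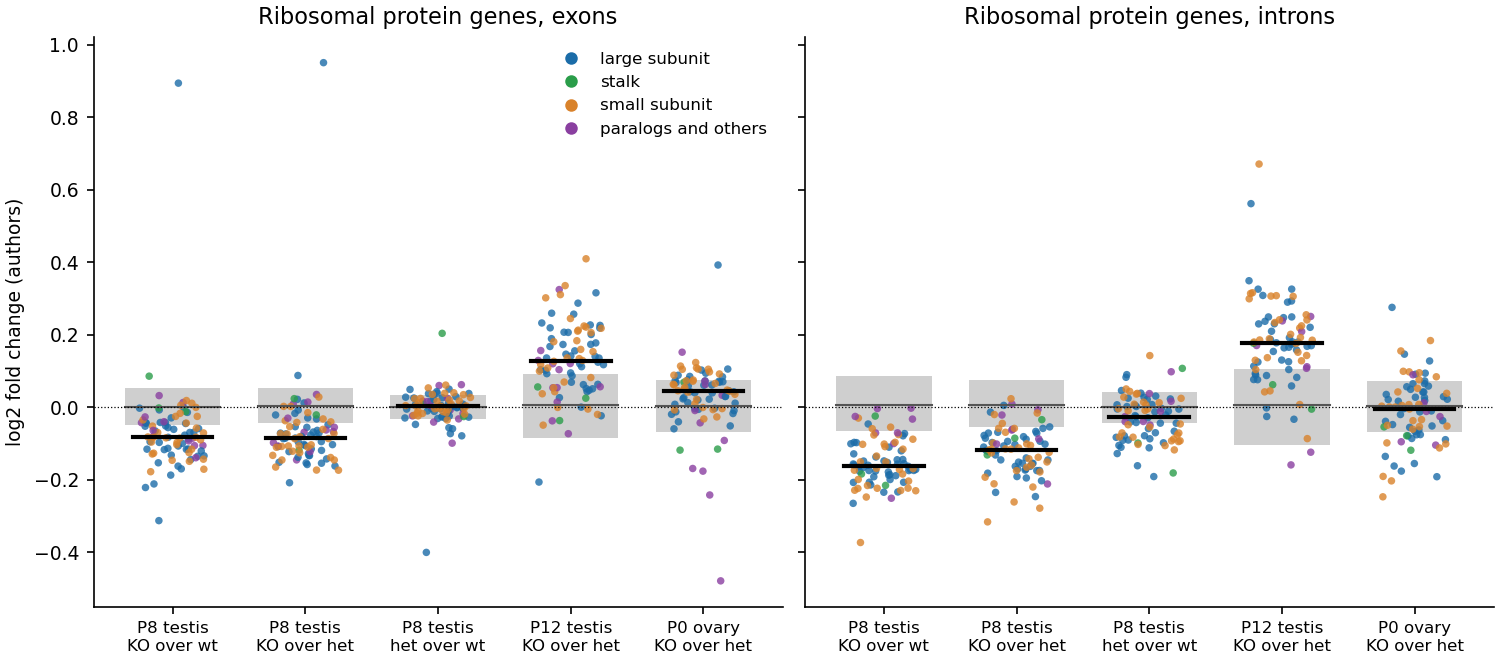
Authors' log2 fold change (y axis) of each ribosomal protein gene whose mean count was at least 10, for exons (left) and introns (right), in the 5 comparisons of genotypes on the x axis. Points are genes, thick black lines the members' medians, grey boxes the quartiles of all genes with a thin line at their median; at P12 the members' exon median is 0.13 and at P8 (KO over wt) -0.08, with Rpl21 alone near 0.9.

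Introns followed at P12. Of 84 members with an intron mean count of at least 10, 77 had log2 folds above 0 in KO over het, against 51.5% of all introns, and the median was 0.18 (linear fold 1.13). The introns of Rpsa, the laminin receptor and small subunit protein (chr9:120127766-120132369), rose with a mean count of 316 and a log2 fold of 0.67 (adjusted p = 0.0115). Its exons had a log2 fold of 0.25 (adjusted p = 0.441). Among all introns 0.0936% rose. The introns of Rpl14, of the large subunit, had a log2 fold of 0.56 (adjusted p = 0.0506), with 0.29 in its exons (adjusted p = 0.396). No introns of members fell, while 0.929% of all introns did, and folds were low in those of Rpl37rt (-0.16) and Rps27l (-0.12).

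At P12 several lists of cell type markers also had folds away from 0. Of the 10 markers of meiotic germ cells 10 had log2 folds below 0 in KO over het (median -0.68, from -1.24 to -0.40) and 7 fell, while 5 of 5 Leydig cell markers were above 0 (median 0.18) and Cyp17a1, a steroidogenic enzyme, rose. All 5 endothelial markers were above 0 (median 0.21) as were 6 of 8 stromal and peritubular markers (median 0.15), and 7 of 8 Sertoli cell markers were below 0 (median -0.08). Levels of these markers per group are not in the tables. In bulk tissue, fewer cells of a type and less RNA per cell cannot be told apart. The part of cell makeup in the folds of the ribosomal protein genes was not tested.

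In P8 testis the folds lay on the other side of 0, and the single call was Rpl21. In KO over wt, 81 of 89 members had log2 folds below 0, against 49.9% of 15592 genes, with a median of -0.08 (linear fold 0.944). No member fell, and 0.00641% of all genes did. Rpl21, of the large subunit (chr5:146832890-146837032), rose, with a mean count of 280 and a log2 fold of 0.89 in the authors' deposited table (adjusted p = 0.000268). Genes that rose were 0.0385% of all. Set against the het library, with the same 2 KO libraries, Rpl21 had a log2 fold of 0.95 (adjusted p = 4.97e-05), where 0.00641% of genes rose. The introns of Rpl21 had log2 folds of -0.10 in KO over wt and -0.07 in KO over het (adjusted p = 1 for both). RefSeq lists 15 named pseudogenes of Rpl21, and how reads shared with them were counted is not given in the sources used here.

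The rest of the family at P8 spread little. The lowest log2 folds in KO over wt were those of Rpl26 (-0.31), Rpl35a (-0.22), Rpl39 (-0.21), Rpl31 (-0.19) and Rps20 (-0.18), each with an adjusted p of 1. The highest after Rpl21 were Rplp0 (0.09), Rps4l (0.03), Rps7 (0.02) and Rpl3l (0.01). Log2 folds were below 0 in 41 of 43 large subunit genes (median -0.09), 28 of 31 small subunit genes (median -0.08), 2 of 3 stalk genes and 10 of 12 paralogs and other names (median -0.07). With a mean count of at least 1000, 55 of 57 members were below 0, against 51.1% of all such genes.

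The het library gave a similar picture as the control, although it shares the KO libraries with the comparison above. In KO over het 78 of 89 members were below 0, with a median of -0.09, against 48.4% of all genes. No member fell, and 0.0513% of all genes did. The lowest were Rpl39 (-0.21), Rps20 (-0.17), Rps4x (-0.17), Rps25 (-0.17) and Rpl35a (-0.16), and the highest after Rpl21 were Rpl26 (0.09), Rps19bp1 (0.04), Rps7 (0.03) and Rplp2 (0.02). In het over wt, 1 library each, 46 of 89 members were above 0 (50.2% of all genes), the median was 0.00 and none was called, against 0.0128% of all genes. There Rpl26 had the lowest log2 fold (-0.40) and Rplp0 the highest (0.20), so the low value of Rpl26 in KO over wt was not seen in KO over het. Other values near the extremes in het over wt were small, among them Rps19bp1 (-0.10), Rpl31 (-0.08) and Rpl35a (-0.06) on the low side, and Rps4l, Rps13 and Rpl10l (0.06 each) and Rps24 (0.05) on the high side.

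The introns of the family at P8 were lower still. In KO over wt 84 of 84 members with an intron mean count of at least 10 had log2 folds below 0, against 48.2% of all introns, and the median was -0.16 (linear fold 0.894). None of them was called, and 0.0141% of all introns were. The lowest were the introns of Rps7 (-0.37), Rpl31 (-0.27) and Rpl22l1 (-0.25). In KO over het 81 of 84 were below 0 (47.6% of all introns), with a median of -0.12 and none called, against 0.0212% of all introns. In het over wt 29 of 84 were above 0 (50% of all introns), with a median of -0.03 and none called, against 0.0141% of all introns.

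Marker genes of P8 testis moved in part with the family. All 5 measured Leydig cell markers had log2 folds below 0 in KO over wt (median -0.29). So had 9 of 10 markers of meiotic germ cells (median -0.09) and 7 of 7 measured spermatid transcripts (median -0.14), which are a gene list only (above). Spermatogonial markers were above 0 in 8 of 10 cases (median 0.16) and Sertoli cell markers in 5 of 8 (median 0.06). None of these passed the test. Against het, 7 of 7 spermatid transcripts were below 0 (median -0.47) and 4 fell. Below 0 there were also 9 of 10 meiotic germ cell markers (median -0.06) and 4 of 5 Leydig cell markers (median -0.10). Above 0 were 8 of 10 spermatogonial markers (median 0.09) and 7 of 8 Sertoli cell markers (median 0.11). The share of these differences in the ribosomal protein folds was not tested.

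Exons and introns of a member mostly had the same sign in testis. At P12 both were above 0 in 71 of 84 members, against 36.5% of 13332 genes. At P8 both were below 0 in KO over wt in 79 of 84, against 31.4% of 13517 genes. Across the members, whose exon and intron counts come from the same libraries, Spearman's rho between exon and intron log2 folds was 0.36 at P12 and 0.04 at P8, against 0.58 and 0.43 across all genes with both. In ovary the signs were the same in 45 of 78 members, against 63.5% of all genes with both, and rho was 0.11, against 0.42. The intron fold was farther from 0 than the exon fold in 55 of 84 members at P12 and in 62 of 84 at P8. The share over all genes was not computed, so this is not read as a trait of the family. Across all genes intron folds also spread more than exon folds, with standard deviations of 0.183 against 0.155 at P12 and 0.125 against 0.099 at P8 (KO over wt).

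**Figure D2:**
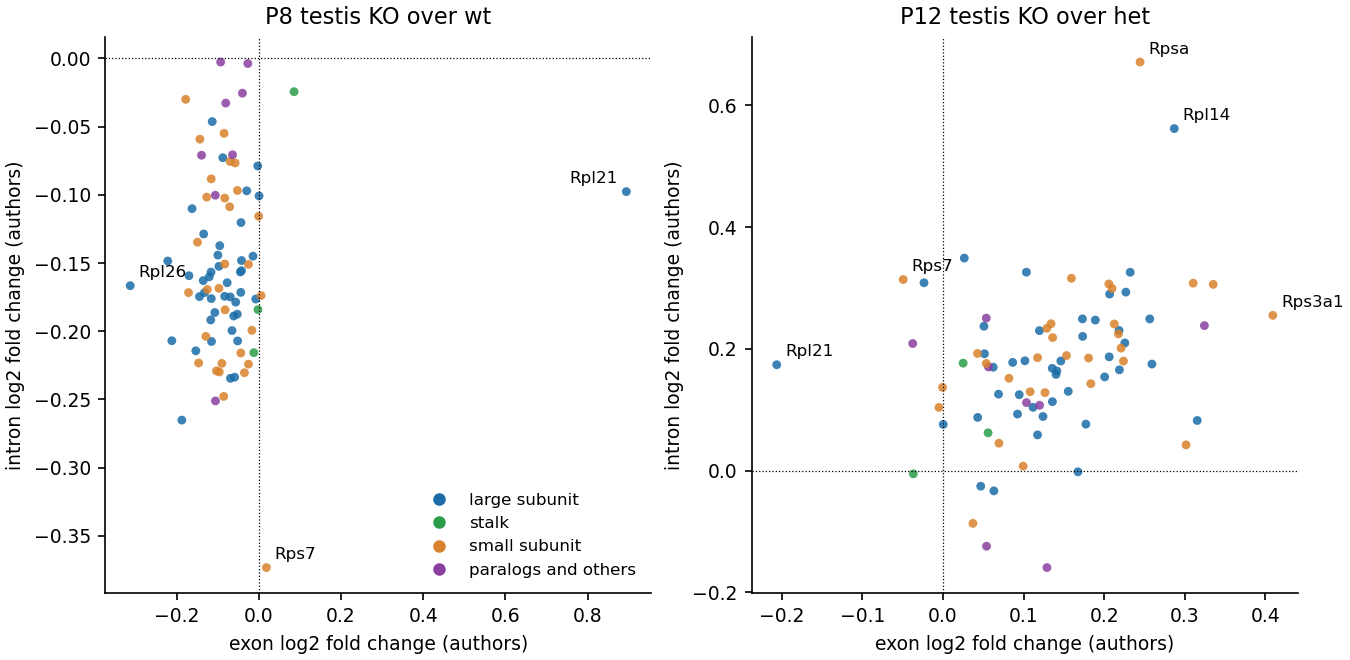
Authors' log2 fold change of introns (y axis) against exons (x axis) of the same ribosomal protein gene, in KO over wt at P8 (left) and in KO over het at P12 (right), for 84 genes each; colours give the subunit. At P8 every point lies below 0 for introns and Rpl21 stands alone at the right, and at P12 71 points lie above 0 for both, with the introns of Rpsa and Rpl14 highest.

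The testis comparisons at P8 and at P12 share no library. In the 89 members, a log2 fold below 0 in KO over wt at P8 went with a fold above 0 in KO over het at P12 in 77 genes, against 31.0% of 15180 genes. Spearman's rho across the 89 members was -0.42 (-0.40 without Rpl21) and -0.30 across all genes. Each point shares its libraries with all others of its comparison, so these values only describe the pattern. Rpl39 was among the lowest members at P8 (-0.21) and among the highest at P12 (0.32). Rps4x had -0.15 at P8 and 0.31 at P12, and Rpl21 went the opposite way, with 0.89 at P8 and -0.21 at P12. The controls differ (wt at P8, het at P12), and the difference between the ages was not tested, since the tables hold no values per library.

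**Figure D3:**
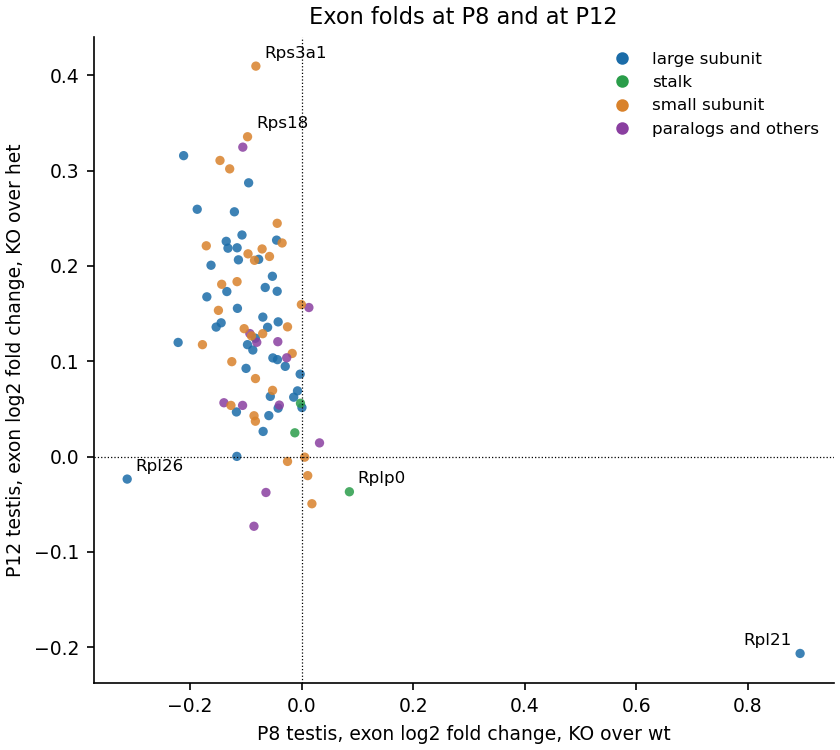
Authors' exon log2 fold change of the 89 ribosomal protein genes in KO over wt at P8 (x axis) and in KO over het at P12 (y axis); each point is a gene, coloured by subunit. The upper left quadrant holds 77 of the 89 genes, and Rpl21 lies apart at the lower right.

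In newborn ovaries no ribosomal protein gene was called. Log2 folds of exons in KO over het were above 0 in 61 of 86 members, against 51.8% of 14606 genes, with a median of 0.04 (linear fold 1.03). Calls were made for 0.548% of all genes. Among the highest were Rpl26 (0.39, adjusted p = 0.717), Rpl22l1 (0.15), Rps15 (0.11) and Rpsa (0.11). Large and small subunit genes were above 0 in 32 of 42 and 24 of 30 cases. Introns were split evenly, with 39 of 80 above 0, against 51.4% of all introns. None was called, against 0.279% of all introns. With an exon mean count of at least 1000, 35 of 41 members were above 0, against 57.5% of all such genes.

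The paralogs stood on the low side in ovary. Of 11 paralogs and other names 4 were above 0, with a median of -0.04. The lowest folds of the whole family were those of Rpl10l (-0.48, adjusted p = 0.241), Rpl39l (-0.24), Rps27l (-0.18) and Rps4l (-0.17), followed by Rplp0 (-0.12), and the last 4 had adjusted p-values of 1.00. Rpl10l had a mean count of 43.4 there and Rpl39l of 29.0, so few reads stand behind these folds. In the same comparison 9 of 9 oocyte markers were below 0 (median -1.38) and 7 fell, and 4 of 6 markers shared by germ cells of both sexes fell. Markers of meiotic germ cells were mixed, with 3 of 9 above 0 (median -0.08), 1 that rose and 1 that fell. Of the spermatogonial markers 6 of 10 were above 0 (median 0.05) and 2 fell. Some lists of somatic markers lay on the positive side, with none called. Above 0 were 8 of 8 stromal and peritubular markers (median 0.15), 5 of 5 Leydig cell markers (median 0.16) and 6 of 7 Sertoli cell markers (median 0.17). The last 2 lists are named for cells of the testis, so in ovary they are gene lists only. Other somatic lists differed, with 3 of 5 endothelial (median 0.02), 2 of 6 macrophage (median -0.04) and 0 of 6 erythroid markers (median -0.11) above 0. The part of these shifts in the folds of the ribosomal protein genes and their paralogs was not tested.

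Paralogs were set against their parent genes within each table, as ratios of mean normalized exon counts that are not corrected for transcript length. A scaling of a whole table cancels in such a ratio. The tables differ in tissue and age, and each mean pools KO and control libraries, so comparing a ratio between tables is a description only. Rpl39l over Rpl39 was 0.333 at P8, 0.291 at P12 and 0.0137 in ovary. Rps4l over Rps4x was 0.547, 0.456 and 0.0621, and Rpl10l over Rpl10 was 6.74, 3.97 and 0.594 in the same order. Rpl3l over Rpl3, a paralog known from striated muscle, was 0.00678, 0.00701 and 0.000447. These 4 ratios were all higher in both testis tables than in ovary. Few reads stand behind some of them in ovary, where Rpl3l had a mean count of 1.02, below the floor. Rpl39l had 29.0 there and Rpl10l 43.4. Rpl36al over Rpl36a (3.66, 3.61 and 1.91) and Rps27l over Rps27 (28.9, 34.6 and 12.8) were also higher in testis, and Rpl22l1 over Rpl22 was not (0.152, 0.150 and 0.186). Rpl10 and Rps27 had few counts (149 and 28.6 at P12), and reads shared with near-identical copies make ratios on them uncertain. Rps4l is annotated as a transcribed pseudogene in RefSeq.

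**Figure D4:**
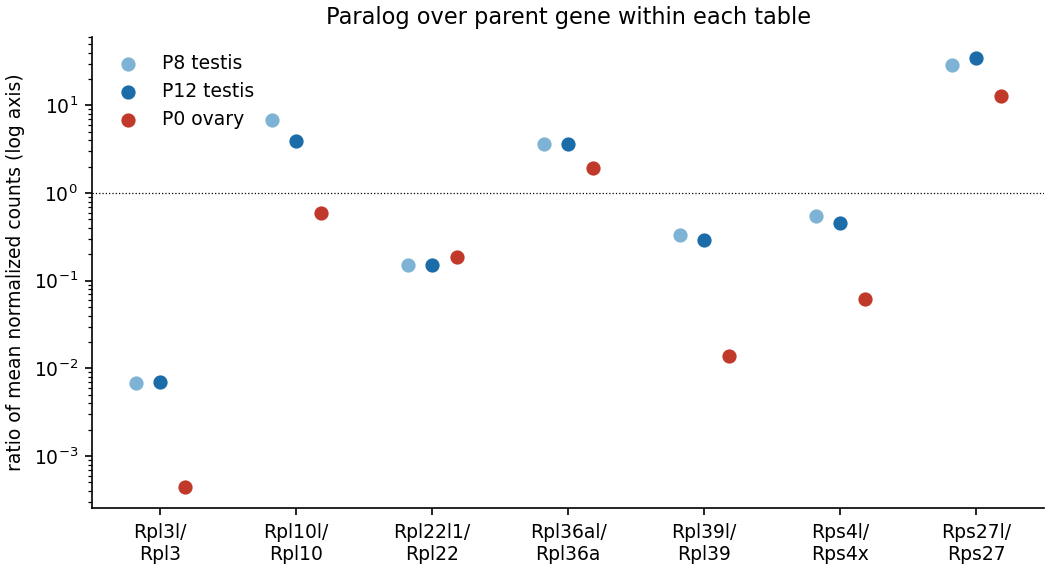
Ratio of the mean normalized exon count of a paralog to that of its parent gene (y axis, log scale) for 7 pairs (x axis) in P8 testis, P12 testis and P0 ovary. Each point is a ratio over all libraries of a table, knockout and control together; Rpl39l over Rpl39 is 0.333 at P8, 0.291 at P12 and 0.0137 in ovary.

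None of these paralogs or their parents was called in KO testes or ovaries. At P12 log2 folds in KO over het were 0.05 for Rpl39l and 0.32 for Rpl39, 0.01 for Rps4l and 0.31 for Rps4x, and -0.07 for Rpl10l and 0.19 for Rpl10. In these 3 pairs the autosomal paralog had the lower fold and the X-linked parent the higher. Rpl36al had 0.12 and Rpl36a, also X-linked, 0.26. The autosomal pairs were closer or ran the other way, with 0.32 for Rpl22l1 and 0.11 for Rpl22, 0.16 for Rpl3l and 0.04 for Rpl3, and 0.05 for Rps27l and -0.02 for Rps27. At P8, in KO over wt, all 14 genes of these pairs had log2 folds between -0.21 and 0.03. The difference within a pair was not tested, since no values per library are given.

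In m6A immunoprecipitation at P8, mRNAs of ribosomal proteins were mostly lower in the immunoprecipitate than in the input. The comparison has 1 immunoprecipitate and 1 input library and no replicate check, so members are counted by a fold of 2 or more. Exon log2 folds of immunoprecipitate over input were -1 or lower in 45 of 87 members, against 19.5% of 16399 genes, and 1 or higher in 2 of 87, against 22.6%. The members' median was -1.04 (linear fold 0.486) and that of all genes -0.01. By the adjusted p of the authors' deposited table, 51 of 87 were lower, against 25.4% of all genes, and 4 were higher, against 25.9%.

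Folds below 0 prevailed in each class of canonical members. In all 75 of 87 members were below 0, against 50.4% of all genes. The median log2 fold was -1.41 in small subunit genes (30 of 31 below 0) and -0.98 in large subunit genes (37 of 42 below 0), and 2 of 3 stalk genes were below 0. The lowest were Rps7 (-2.88), Rps13 (-2.56), Rps29 (-2.46) and Rpl35a (-2.34), and, among the paralogs, Rps27l (-2.23). Among the members with the highest mean counts in this table, which average libraries of all ages, Rpl4 (7691) had a log2 fold of -0.88 and Rpl8 (6656) of -1.42. Of 76 canonical members 7 had folds above 0, with Rpl26 (0.80) and Rpl28 (0.58) highest, and 0 of the 76 reached 1. Rpl28 rested on a mean count of 27.3. Among the 64 canonical members with a mean count of at least 100, 5 were above 0.

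The exceptions lay among the paralogs and other names, where 5 of 11 were above 0 and the median was -0.02. Rps19bp1, which encodes a regulator of the deacetylase SIRT1 that binds ribosomal protein S19 and is no ribosomal protein itself, had a log2 fold of 1.82. Rpl10l had 1.04, Rpl36al 0.72 and Rps4l 0.51. These 4 are the members that the authors' deposited table calls higher, with adjusted p-values of 5.81e-10, 4.92e-06, 0.0239 and 0.0352 in this order. Their parent genes Rpl10 (-0.65), Rpl36a (-1.04) and Rps4x (-1.78) were below 0. Rpl39l (-0.72) and Rpl22l1 (-0.75) were below 0, less so than Rpl39 (-2.09) and Rpl22 (-0.97). Rpl3l (-1.04) and its parent Rpl3 (-1.64) were both at least 1 below 0. The pair of Rps27l (-2.23) and Rps27 (-1.57) ran the other way, with the paralog lower, and Rps27 had a mean count of only 16.5.

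**Figure D5:**
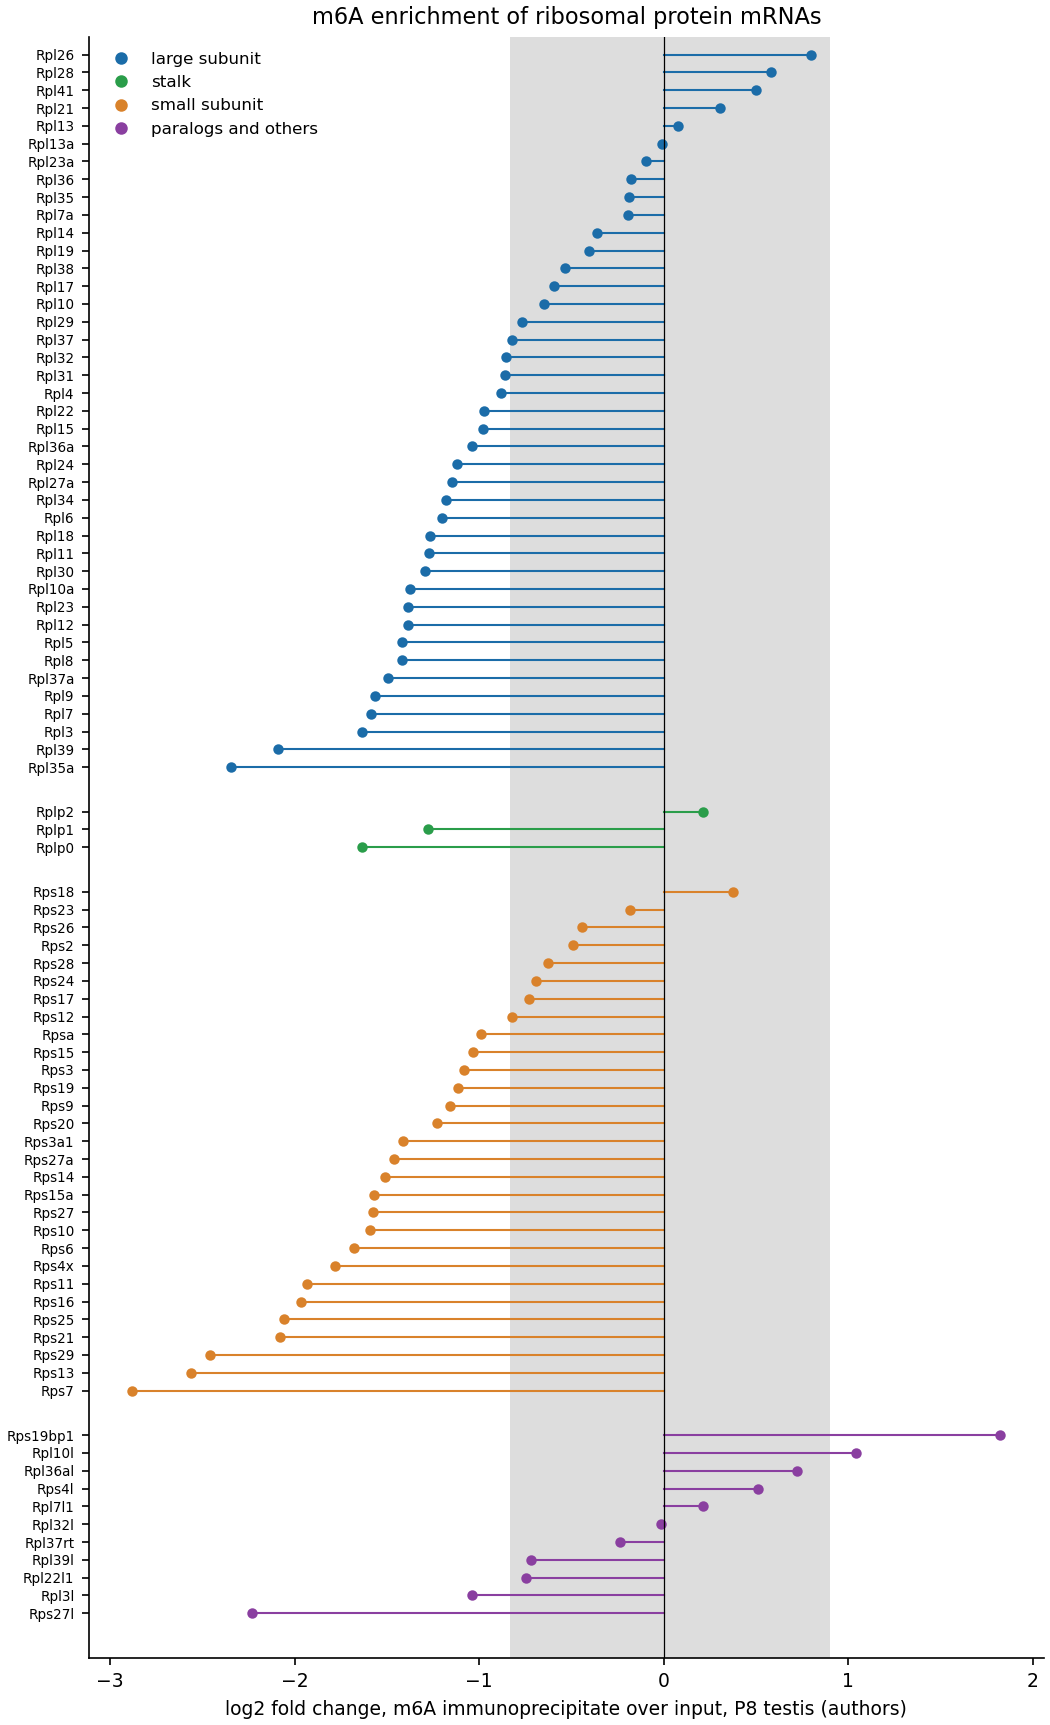
Authors' exon log2 fold change of m6A immunoprecipitate over input in P8 wt testis (x axis) for 84 of the 87 ribosomal protein genes (y axis, by class and fold); lines run from 0 to each value, and the grey band spans the quartiles of all genes. Most canonical members lie left of 0, with Rps7 lowest at -2.88, and Rps19bp1 is highest at 1.82.

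Introns in the m6A table leaned to the same side as exons, with smaller folds. Of 83 members with an intron mean count of at least 10, 6 had a log2 fold of -1 or lower, against 2.94% of all introns, and 2 had 1 or higher, against 9.72%. Log2 folds were below 0 in 54 of 83 members, against 51.7% of all introns. The members' median was -0.26 and that of all introns -0.03. Introns of Rpl7a, with -1.06, were the only ones lower by the adjusted p of the authors' deposited table (0.0415), against 2.24% of all introns. Many of these introns hold genes of small nucleolar RNAs (snoRNAs), which guide modification of ribosomal RNA and are released from the spliced introns. In RefSeq, 30 members hold 59 snoRNA genes within their span. Library kits differ between the tables: the m6A libraries were made with a small RNA kit and the total RNA libraries were not.

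Intron counts of a few snoRNA hosts were high in the m6A table. The intron mean count there was divided by that in the P8 total RNA table. The first mean pools immunoprecipitates and inputs of P8, P12 and P20, and the second only P8 libraries. The ratio had a median of 0.377 in the 30 hosts, where it was as low as 0.08 (Rps3), and 0.248 in 55 other members. It was 0.214 in 14169 genes with a P8 intron mean count over the floor, which was not set for the members. The ratio was above 2 in 6 members, against 2.93% of these genes. Of the 30 hosts 5 were among the 6, with Rpl17 (12.9), Rpl7a (8.38), Rpl13 (4.00) and Rpl21 (3.93) highest. The member that is no host was Rpl37rt (3.83), which holds no annotated snoRNA gene. Rpl17 thus had an intron mean count of 3753 against 21.4 for its exons in the m6A table, and 291 against 226 in the P8 total RNA table. Whether snoRNA reads make up these intron counts was not tested. In the genotype comparisons hosts and other members had alike intron medians, with -0.17 in hosts and -0.16 in the others for KO over wt at P8, and 0.18 in both for KO over het at P12.

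Some members had more intron than exon counts in total RNA, in 8 of 85 genes at P12, 11 of 85 at P8 and 7 of 83 in ovary. Of all genes with a mean count of at least 10 in both exons and introns, 21.6% did so at P12, 30.1% at P8 and 40.3% in ovary, so this is not a trait of the family. Rpl27 had 27.3 for exons and 400.4 for introns at P12, and Rps7 had 87.7 and 375. RefSeq lists named pseudogenes for 63 of the 89 members, up to 23 for Rpl31 and Rps12. Exon levels of such genes are uncertain, because reads shared with processed copies may have been left out or split, and the counting is not given in the sources used here.

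Among other genes of the translation pathway, those that encode translation factors had folds close to those of the family at P12. Log2 folds in KO over het were above 0 for 3 of 3 measured ribosomal proteins with other names, such as Fau (0.16) and Rack1 (0.18), and for 17 of 18 translation factors and other TOP mRNAs (median 0.11), such as Eef1a1 (0.20) and Tpt1 (0.28). Ribosome biogenesis factors were split, with 18 of 34 above 0 (median 0.02), and regulators of mTORC1 and TOP mRNAs had 3 of 13 above 0 (median -0.08). None of the genes in these 4 lists passed the test. Of the 11 genes of the p53 response, which ribosomal stress can activate, 5 were above 0, and Sesn2, a stress-induced inhibitor of mTORC1, fell (log2 fold -0.46, adjusted p = 0.00651).

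Other housekeeping groups had similar folds. Mitochondrial ribosomal proteins were above 0 in 59 of 76 genes at P12 (median 0.05) and subunits of oxidative phosphorylation in 66 of 79 (median 0.11). Of the latter list Cox7b, a subunit of cytochrome c oxidase, rose (log2 fold 0.49, adjusted p = 0.00558), and Cox7a1, the muscle isoform of another of its subunits, fell (-1.04, adjusted p = 1.88e-08). At P8, in KO over wt, 62 of 76 mitochondrial ribosomal proteins (median -0.05), 70 of 78 oxidative phosphorylation subunits (median -0.07) and 13 of 18 translation factors and TOP mRNAs (median -0.04) were below 0, with no call, and 11 of 11 p53 response genes were above 0 (median 0.05). So folds on the negative side at P8 and the positive side at P12 were not limited to genes of the cytosolic ribosome.

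In ovary the same lists had medians between -0.06 and 0.06, with 14 of 18 translation factors and TOP mRNAs above 0 and 7 of 34 biogenesis factors. There Aen, a nuclease induced by p53, fell in KO over het (log2 fold -0.62, adjusted p = 0.0452). In the m6A table, median log2 folds of immunoprecipitate over input were -0.79 for translation factors and TOP mRNAs (17 of 18 below 0), -0.98 for oxidative phosphorylation subunits (69 of 76 below 0), -0.48 for biogenesis factors (23 of 34 below 0) and 0.20 for mitochondrial ribosomal proteins (35 of 76 below 0). Low m6A folds were thus also found in oxidative phosphorylation genes, and not in the proteins of the mitochondrial ribosome as a group.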

How the data were processed

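Total RNA libraries of testes and ovaries and m6A libraries of testes were grouped by the labels. The deposited tables give, per the file headers, for sense exons and introns, the log2 fold change and adjusted p-value of each comparison and a signal, the normalized count averaged over all libraries. The submitters' processing notes name mm10 and DESeq2, and cutadapt for ovary. Aligner, counting rules and annotation are not named in the sources used here. Headers of both testis total RNA tables hold the string IPvsInput, which the labels contradict, and their columns were read as KO over control.

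Models of counts per library had been planned. Without such values the authors' adjusted p-values from DESeq2 were used, with 0.05 as the threshold and a mean normalized count of at least 10 for counts over genes. In the m6A table the columns of each age were sorted by adjusted p separately: exon and intron folds had a Spearman's rho of 0.17 at P8, 0.00 at P12 and -0.00 at P20, and 2911 features at P12 and 2823 at P20 had counts but no fold. So only P8 was used. The Bind-N-Seq table, with 8 columns of values per library that match no label, was not used. Deposited folds appear drawn toward 0, so sizes are not strictly comparable between tables.

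The members and lists were chosen with earlier results of these data known. Named were all called members, the 5 highest and 5 lowest folds and the 3 highest mean counts of each comparison, the paralogs with their parents, and called genes of the lists. A few of the genes that meet this rule are not reported here. Sequences and gene positions are from RefSeq (GRCm38.p6). Medians and counts were computed in Python 3.11.15 with pandas 2.3.3 and were tested on simulated data.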

Additional observations from a re-analysis of the deposited data

How the results depend on the processing

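Alternatives were no floor or a floor of 100 on mean counts, adjusted p below 0.1 or 0.01, folds centred on the median of all genes, the het library as the P8 control, and members without the paralogs and others. Several cannot move a value: another threshold leaves the signs as they are, centring leaves the calls, and at P8 and P12 all 89 members pass the floor of 10. Over the others the share of members with exon folds above 0 lay between 88.8% and 92.8% at P12, 5.95% and 12.4% at P8, and 70.8% and 77.9% in ovary. The introns in ovary changed side: 48.8% of the members had log2 folds above 0 at the floor of 10 and 67.7% at the floor of 100, where fewer members were left. The introns of Rpsa at P12 (adjusted p = 0.0115) were no longer called at 0.01. No paired analysis was possible because the tables hold no values per library, and for the same reason leaving out each replicate was not run. The P8 comparisons rest on 2 libraries against 1 and the m6A comparison on 1 against 1. Depth limits Rpl27, Rps23, Rps27, Rps27rt and Rpl3l, whose exon mean counts were below 35 in the total RNA tables, and reads shared with processed copies limit the levels of many members.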
